A study of Mus musculus with 5 samples.

Results

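The genes described here encode the non-collagen part of the interstitial matrix, the material that fills the space between cells of connective tissue. They are fibronectin (Fn1), the fibrillins (Fbn1 and Fbn2), the fibulins (Fbln1 and Fbln2), the proteoglycans versican (Vcan), lumican (Lum) and decorin (Dcn), and the matricellular proteins periostin (Postn) and tenascin C (Tnc). They were chosen by name, and all 10 were found among the 20097 gene names of the all-gene table, each on a single row. Total RNA depleted of ribosomal RNA was sequenced from mouse pituitaries of stage e12.5, on a mixed B6;129 background. The libraries labelled KO13 and KO16 came from 2 samples with floxed Itgb1 alleles (Itgb1 f/f) and the Pitx1-cre transgene, and the controls, numbered 9, 10 and 12, from 3 littermate samples with the floxed alleles alone. Itgb1 encodes integrin beta 1, a subunit shared by many matrix receptors, and Pitx1-cre acts in the oral ectoderm and the pituitary that forms from it, so other cells of the dissected tissue should keep the gene. The labels call the libraries separate biological replicates.

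Interstitial matrix is made largely by mesenchymal cells. Fibronectin is assembled into fibrils by cells that pull on it through integrins, above all the alpha 5 beta 1 receptor, and the fibrils serve as a template for other matrix proteins. Fibrillins form microfibrils that hold latent growth factors, fibulins link these to other matrix proteins, versican binds hyaluronan in loose embryonic matrix, and lumican and decorin coat collagen fibrils. Periostin and tenascin C are matricellular proteins, which act on cells more than they bear load. In the embryonic head such matrix lies in the mesenchyme around Rathke's pouch, the epithelial pocket that becomes the anterior pituitary.

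Runs that integrins may bind were looked for in the coding sequences. Many integrins bind the amino acid sequence Arg-Gly-Asp, and in-frame codons for it (CGN, AGA or AGG, then GGN, then GAC or GAT) were searched for in the longest coding sequence of each gene in GENCODE M21, annotated on the mouse build GRCm38. They were present in 4 of the 10 genes, Fn1, Fbn1, Fbn2 and Fbln2, against 7.25% of 21562 coding genes. This comparison was not corrected for length, and a longer sequence has more places for such a run. The 4 genes held 1221 to 2907 codons, while Vcan at 3354 and Tnc at 2110 had none. Fn1 and Fbn2 held 2 such runs each, and Fbn1 and Fbln2 held 1 each. Fn1 codon 1614 lies in the classical cell-binding repeat of fibronectin. The runs of the 3 genes shown are printed 5′ to 3′ on the coding strand because these proteins can in principle be seen by integrins, with the 9 bases of the run in capitals and 21 bases on either side.
Fn1 codon 1614: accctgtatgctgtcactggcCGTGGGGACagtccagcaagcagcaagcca
Fn1 codon 2181: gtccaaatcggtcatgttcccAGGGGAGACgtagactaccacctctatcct
Fbn1 codon 1543: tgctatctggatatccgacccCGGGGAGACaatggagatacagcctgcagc
Fbln2 codon 421: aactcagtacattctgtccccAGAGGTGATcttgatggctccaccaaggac
The match is a description of these letters, and the 6 other genes may meet integrins through other sequences.

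Levels were deposited as tags per 10000000 total tags of a library, called tags from here. The tags recovered over the listed regions numbered 5733659 and 4635629 in KO13 and KO16, against 5672238 to 6413188 in the controls. KO16 stood apart from the other libraries. Its rho (Spearman) between level and region length was 0.94 across genes, against 0.73 in KO13 and 0.68 to 0.76 in the controls, given as a description, since genes are no independent replicates. Autosomal genes for smell and pheromone receptors, which few tissues use, held 0.47 tags per kilobase in KO13 and 1.5 in KO16, against 0.16 to 0.39 in the controls. This density times region length gives a background estimate for each gene. The targeted gene Itgb1 (mm9 chromosome 8, 131210354 to 131257479) held 446 deposited tags in KO13, above every control, and 186 in KO16, against 273 to 431 in the controls. After scaling by TMM factors, which set the bulk of genes level between libraries, Itgb1 was at 340 and 105, against 429 to 603, a log2 change of -1.36 ± 0.49 (SE) with an adjusted p of 0.767 in limma. The region covers the whole gene and not the deleted part alone, so it does not check the label of KO13. The region tables carry no strand and reach over introns as well as exons, and no other listed region overlapped those of the matrix genes.

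Lumican and periostin had the lowest fitted log2 changes among the matrix genes, and versican, fibrillin 2 and fibronectin followed, but none of the 10 passed the test. In bulk tissue such as this, fewer cells of a type and less RNA per cell cannot be told apart. With limma on TMM-scaled values no member had an adjusted p under 0.05, and 0 of 19313 genes did so (0%). At an unadjusted p under 0.05 stood Postn and Lum, both lower, beside 0.948% of all tested genes lower and 1.05% higher. The median change of the 10 genes was -0.61 on the log2 scale, beside 0.04 over all tested genes, and 8 of the 10 changes were below 0, as were 48.1% of all. In 4 of them, Fbn2, Fbln1, Lum and Postn, both knockout libraries lay below every control, as did 6.91% of all tested genes. Tnc alone lay above every control in both, where 8.43% of all tested genes did. Taken singly, KO13 lay below every control in 6 of the 10 genes (16.4% of all tested genes), and KO16 below in 6 (39.8%) and above in 3 (43.8%). With 2 libraries against 3, no exact permutation test of a single gene can give a 2-sided p under 0.1. The size of these changes came mostly from KO16. Without KO13, limma called Fn1, Fbn2, Postn, Vcan and Lum, all lower, in a fit that called 12.2% of all tested genes lower and 1.24% higher. The log2 changes of that fit were -1.38 for Fn1, -1.59 for Fbn2, -1.76 for Postn, -1.78 for Vcan and -2.15 for Lum, with limma adjusted p of 0.0156 to 0.0324. With background subtracted the same 5 genes were called, beside 10.9% of all tested genes lower and 4.11% higher. In both fits KO16 is assumed to vary like the controls. Without KO16 the median of the 10 genes was -0.17 and none was called (0% of all tested genes).

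**Figure D1:**
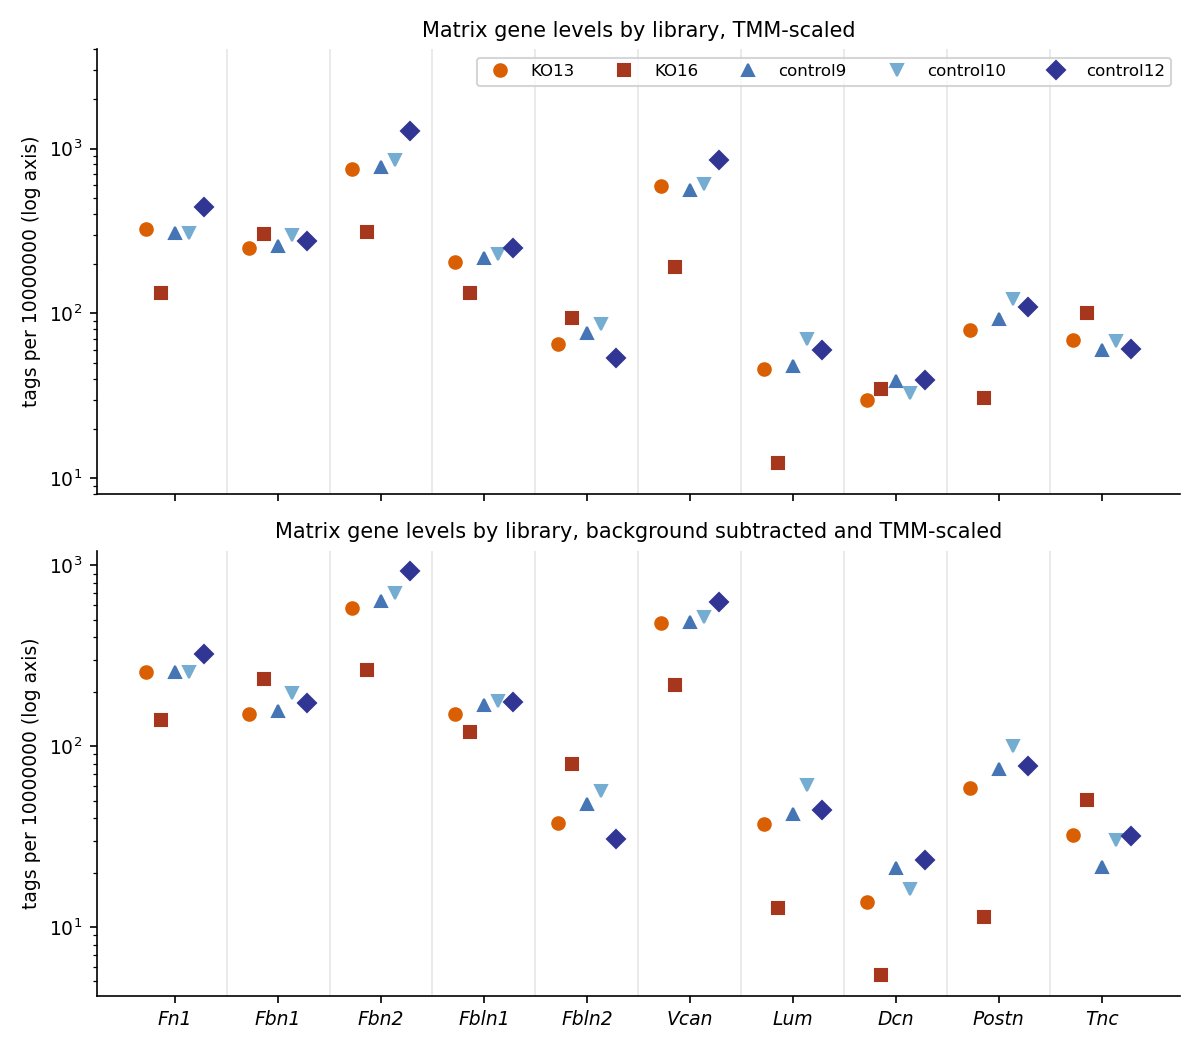
Level of each matrix gene in the 5 libraries, in tags per 10000000 on a log axis, TMM-scaled in the upper panel and with background subtracted before scaling in the lower panel; each symbol is 1 library. KO16 lies far below the other libraries for Fn1, Fbn2, Vcan, Lum and Postn in both panels, and above every control for Fbn1, Fbln2 and Tnc.

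Fibronectin, the scaffold on which other fibres are laid, was at 427 and 234 deposited tags in KO13 and KO16, against 185, 306 and 315 in controls 9, 10 and 12. KO13 was thus the highest library and KO16 lay inside the controls before scaling. TMM-scaled, Fn1 (mm9 chromosome 1, 71632497 to 71699345) was at 326 in KO13 and 132 in KO16, against 306, 308 and 441. KO13 then lay among the controls and only KO16 below them. The fitted log2 change of Fn1 was -0.74 ± 0.44 (SE), with a 95% interval of -1.71 to 0.24 and an adjusted p of 0.767 in limma.

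The fibrillins parted from each other in KO16, and the difference between them was not tested. In KO13 both were below the control mean, by log2 differences of -0.33 for Fbn2 and -0.14 for Fbn1, TMM-scaled. Fbn2 (mm9 chromosome 18, 58168677 to 58369180), the fibrillin typical of embryonic microfibrils, was the matrix gene with most tags, at 982 and 554 deposited tags in KO13 and KO16, against 466, 847 and 912 in the controls. TMM-scaled it was at 749 and 313, against 770, 852 and 1275, so that both knockout libraries lay below every control, KO13 by a small margin. Its log2 change was -0.96 ± 0.46 (SE, adjusted p = 0.767, limma). Fbn1 (mm9 chromosome 2, 125126730 to 125331774), the fibrillin that persists in adult tissue, was at 327 and 534 deposited tags in KO13 and KO16, against 155, 295 and 195. Scaled, it was at 250 and 302, against 255, 297 and 273. KO13 was here the lowest library and KO16 the highest, and the fitted change was -0.00 with an interval of -0.76 to 0.76.

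The fibulins, which bridge microfibrils, fibronectin and basement membranes, also went separate ways in KO16 alone, and their difference was not tested. In KO13 the log2 differences from the control mean were -0.17 for Fbln1 and -0.11 for Fbln2, TMM-scaled. Fbln1 (mm9 chromosome 15, 85037238 to 85116724) was at 205 and 133 TMM-scaled tags in KO13 and KO16, against 216, 228 and 250, below every control in both, with a log2 change of -0.48 ± 0.36 (SE, adjusted p = 0.767, limma). Fbln2 (mm9 chromosome 6, 91163558 to 91222534) was at 65.2 and 93.5, against 76.5, 85.9 and 53.4. KO13 lay within the controls and KO16 above them, and the change of Fbln2 was 0.14 ± 0.40 (SE, adjusted p = 0.90, limma).

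Among the proteoglycans, versican held more tags than the small leucine-rich members, but over a longer region. The regions span 86.4 kilobases for Vcan, 6.4 for Lum and 37.9 for Dcn. Per kilobase of region, Lum was not below Vcan in the controls. Vcan (mm9 chromosome 13, 89795315 to 89881717) was at 775 and 340 deposited tags in KO13 and KO16, against 340, 605 and 608. Scaled, Vcan was at 591 and 192, against 561, 608 and 850, and KO13 lay within the controls. Its log2 change was -0.97 ± 0.49 (SE, adjusted p = 0.767, limma). Lum (mm9 chromosome 10, 97028935 to 97035337) was at 60 and 21.8 deposited tags, against 29.1, 69.1 and 42.7. The 24 reads behind the KO16 value give a 95% Poisson interval of 14 to 32.5 tags, which covers counting error only. Scaled, Lum was at 45.8 and 12.3, against 48.0, 69.5 and 59.7, so both knockout libraries lay below every control. The log2 change of Lum was -1.25 ± 0.54 (SE), the lowest of the 10 genes, with an unadjusted p of 0.0431 and an adjusted p of 0.767 in limma. Dcn (mm9 chromosome 10, 96942934 to 96980796), which lies close to Lum, was at 29.8 and 35.0 scaled tags, against 39.0, 32.9 and 39.4, a change of -0.19 ± 0.41 (SE, adjusted p = 0.875, limma).

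The matricellular genes lay on opposite sides of the controls. Postn (mm9 chromosome 3, 54165829 to 54194963) was at 104 and 54.6 deposited tags in KO13 and KO16, against 56.4, 121 and 78.2. Scaled, it was at 79.0 and 30.8, against 93.0, 122 and 109, with both knockout libraries below every control. Its log2 change was -1.10 ± 0.45 (SE), with an interval of -2.10 to -0.10, an unadjusted p of 0.0339 and an adjusted p of 0.767 in limma. Tnc (mm9 chromosome 4, 63621219 to 63707649) was at 68.6 and 100.7 scaled tags, against 60, 67.6 and 61.0. Both knockout libraries lay above the controls, KO13 by about 1 tag, and the change of Tnc was 0.40 ± 0.38 (SE, adjusted p = 0.767, limma).

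**Figure D2:**
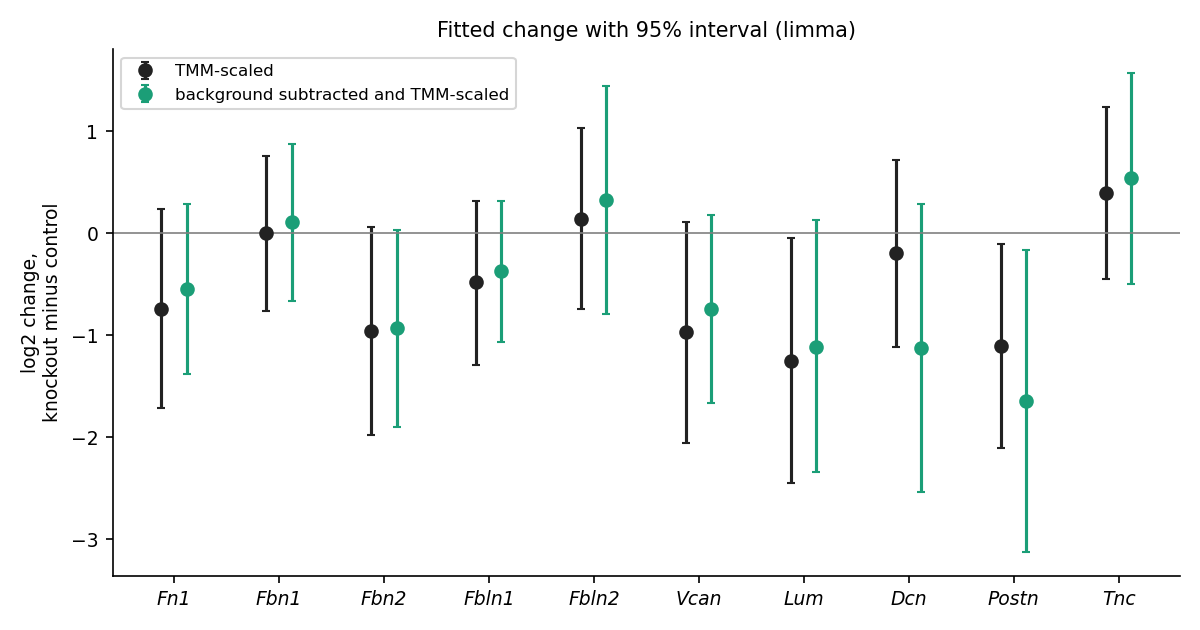
Fitted log2 change of each matrix gene, knockout minus control (2 and 3 libraries), from limma on TMM-scaled values (black) and with background subtracted before scaling (green); bars are 95% intervals. The intervals of Postn lie below 0 in both fits, those of Lum only without subtraction, and those of the other genes include 0.

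The difference of each matrix gene in KO16 from the controls went with the share of its tags that the background estimate made up. In the controls that estimate was 3.67% of the level of Lum and 4.50% of Vcan, 6.69% to 9.22% for Fn1, Fbn2 and Postn, 12% for Fbln1, 25.7% to 36.2% for Fbn1, Fbln2 and Dcn, and 47.4% for Tnc. In KO16 it reached 91.7% of the level of Dcn, 80.0% of Postn, 72.6% of Tnc and 57.5% of Fbn1, and its lowest share was 38.0%, for Vcan. Genes at large followed the same order. Among genes with a mean of at least 20 tags, the 1445 with a background share under 5% in the controls had a median log2 difference from the control mean of -1.87 in KO16. The median was -1.25 for the 1986 genes at 5% to 10%, -0.62 for 3249 genes at 10% to 20%, 0.14 for 2701 genes at 20% to 40% and 1.09 for 2072 genes at 40% to 70%. Both knockout libraries lay below every control in 13.4% of the genes of the first class and 14.5% of the third, but in 5.11% of the fourth and 0.145% of the fifth. The share and the difference both use the control values, and these medians are descriptions.

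Set beside these medians, most matrix genes lay in KO16 where genes of like background share lay. Vcan at -1.78 and Lum at -2.16 stood in the first class, whose middle 50% of genes ran from -2.19 to -1.58. Fn1 at -1.38 was inside the range of the second class, -1.50 to -1.0, while Fbn2 at -1.59 and Postn at -1.77 were below it. Fbln1, Fbn1, Fbln2 and Dcn were inside the ranges of their classes, and Tnc at 0.67 was below its class, whose range was 0.82 to 1.35. In KO13 the class medians lay between -0.03 and 0.10, and 9 of the 10 genes were below the median of their class, Tnc being the exception. The same count was 8 in KO16, and 7, 5 and 5 in controls 9, 10 and 12. The median difference of the 10 genes in KO13 was -0.17, close to the -0.14 of control 9, which itself enters the control mean.

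**Figure D3:**
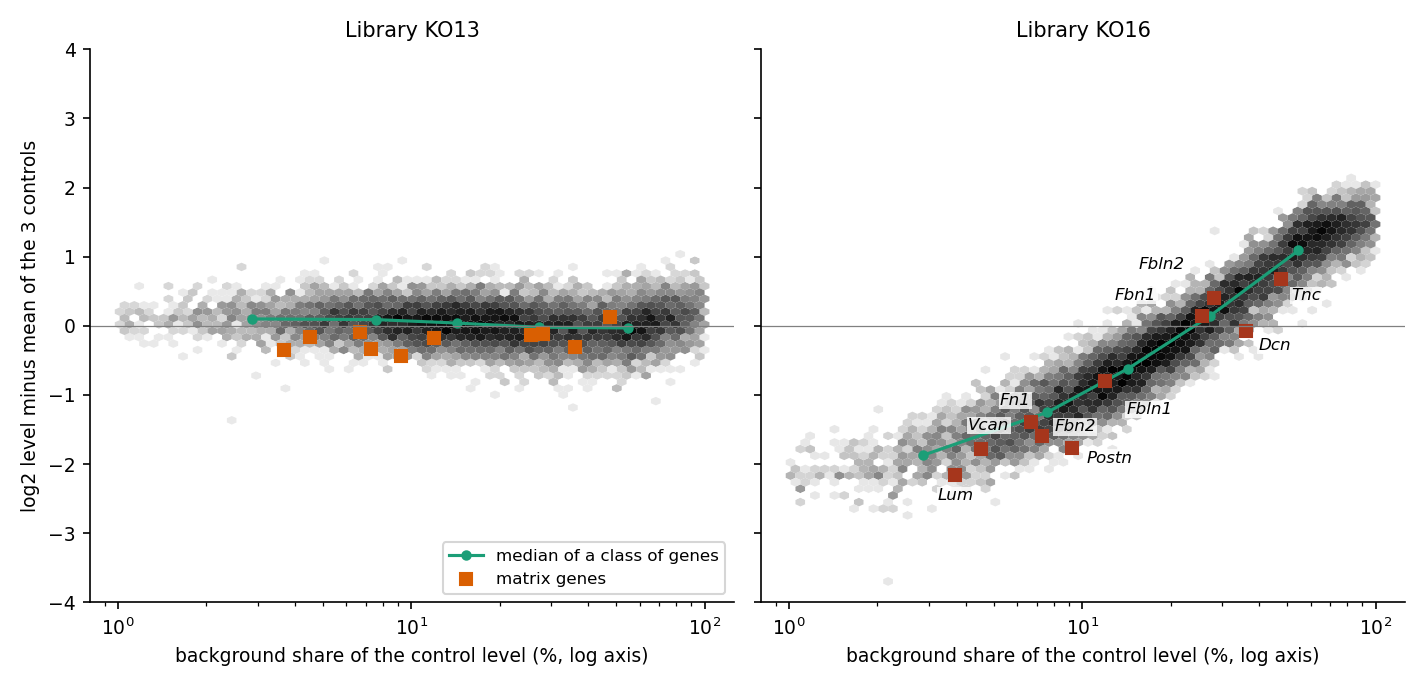
Log2 level in KO13 (left) and KO16 (right) minus the mean of the 3 controls, TMM-scaled, against the share of the control level that the background estimate makes up (log axis), for genes with a mean of at least 20 tags and a share of 1% to 100%. Grey shading is the density of genes, green points are medians of classes of genes and squares are the 10 matrix genes; in KO16 the medians climb from -1.87 to 1.09 and the matrix genes lie along the same slope, while in KO13 they stay near 0.

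With the background subtracted before scaling, the fitted values of Postn and Dcn shifted most. Postn was then at 58.5 in KO13 and 11.4 in KO16, against 74.7, 100 and 77.8 in the controls, a log2 change of -1.64 ± 0.64 (SE, adjusted p = 0.825, limma). Dcn was at 13.8 and 5.4, against 21.2, 16.2 and 23.5, and its change moved to -1.12 ± 0.61 (SE, adjusted p = 0.825, limma). The 10.9 unscaled tags left for Postn and the 5.1 left for Dcn in KO16 are small differences between large numbers. In 6 of the 10 genes, Fbn2, Postn, Vcan, Fbln1, Lum and Dcn, both knockout libraries lay below every control, as in 7.69% of all tested genes, and Tnc lay above (8.97%). KO13 alone was below every control in 7 genes (20.8%), KO16 alone below in 7 (37.8%) and above in 3 (44%). The median of the 10 changes was -0.64, beside 0.03 over all genes. Subtraction did not level the background share classes in KO16. Their medians were then -1.19, -0.89, -0.44, 0.37 and 1.85, from the lowest share to the highest. In KO13 the class medians with background subtracted lay between -0.15 and 0.09.

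The number of genes below the controls depended on the scaling. When the TMM factors were taken from the 3431 genes with a background share under 10% and a mean of at least 20 tags, and the background was subtracted, the median of the 10 changes was -0.16, beside 0.49 over all tested genes. Fn1 was then at 214 in KO13 and 252 in KO16, against 230, 227 and 270, Fbln1 was above every control in KO16, and their changes were -0.06 and 0.12. Postn, Lum, Fbn2, Vcan and Dcn were below every control in both knockout libraries, as were 4.31% of all tested genes, and none lay above in both (13.2%). KO13 alone was below every control in 8 genes (25%), KO16 alone below in 5 (14.5%) and above in 4 (71.7%). Postn was at 48.5 and 20.6 on this scale, against 66.9, 88.7 and 65.2, a change of -1.17 ± 0.44 (SE, adjusted p = 0.751, limma), and Lum at 30.7 and 23.1, against 37.6, 53.9 and 37.0. Over 7 scalings, from the deposited values to this one, Postn and Lum lay below every control in both knockout libraries in 6, Fbn2 in 4, Vcan and Fbln1 in 3, Dcn in 2 and the others in none. The share of all tested genes was 6.91%, 7.69% and 4.31% in the scalings described above, and was not computed for the others. All 7 scalings use the same 5 libraries, so these counts do not measure reliability. The exception for Postn and Lum was the deposited values, where KO16 was below every control for both and KO13 was not, and where the median of all tested genes was 0.97 higher in the knockout libraries and the median of the 10 genes 0.40 higher.

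**Figure D4:**
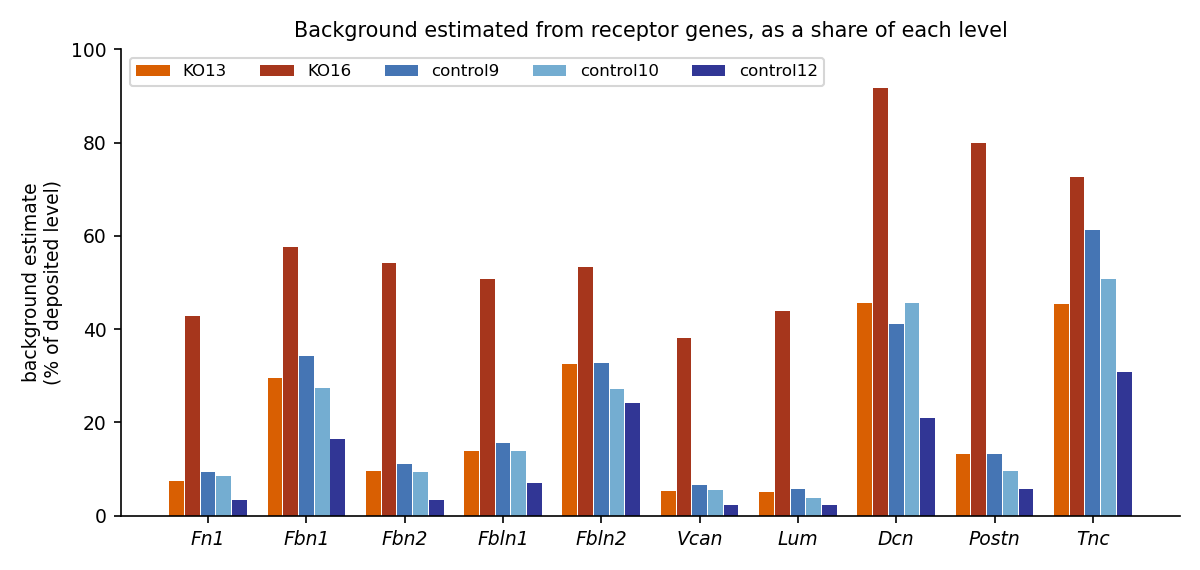
Background estimated from receptor genes, as a percentage of the deposited level of each matrix gene in each library (bars from 0). The KO16 bars are the highest for every gene, from 38.0% for Vcan to 91.7% for Dcn.

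The relative make-up of the 10 genes needs no scaling factor, but with background subtracted it depends on the background estimate. With background subtracted, Fbn2 held 32.2% and 23.2% of the tags of the 10 genes in KO13 and KO16, against 33.2% to 38.2% in the controls. Vcan held 26.7% and 19.3%, against 24.6% to 25.8%, and Fn1 14.4% and 12.2%, against 12.1% to 13.5%. Fbn1 held 8.37% and 20.7%, against 7.09% to 9.26%, and Postn 3.26% and 1.0%, against 3.19% to 4.72%. The shares in KO13 were close to those of the controls. In KO16 Fbn1, Fbln1, Fbln2 and Tnc took a larger share than in any control, and Fbn2, Vcan, Postn, Lum and Dcn a smaller one. In the controls, background made up 12% to 47.4% of the level of the former. It made up 3.67% to 9.22% of the latter, apart from Dcn at 36.2%. Genes at large kept such an order in KO16 after subtraction, with class medians from -1.19 to 1.85. The part of background in these shares was not tested. For Dcn the direction turned without subtraction, at 2.6% in KO16, against 1.15% to 1.61% in the controls.

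**Figure D5:**
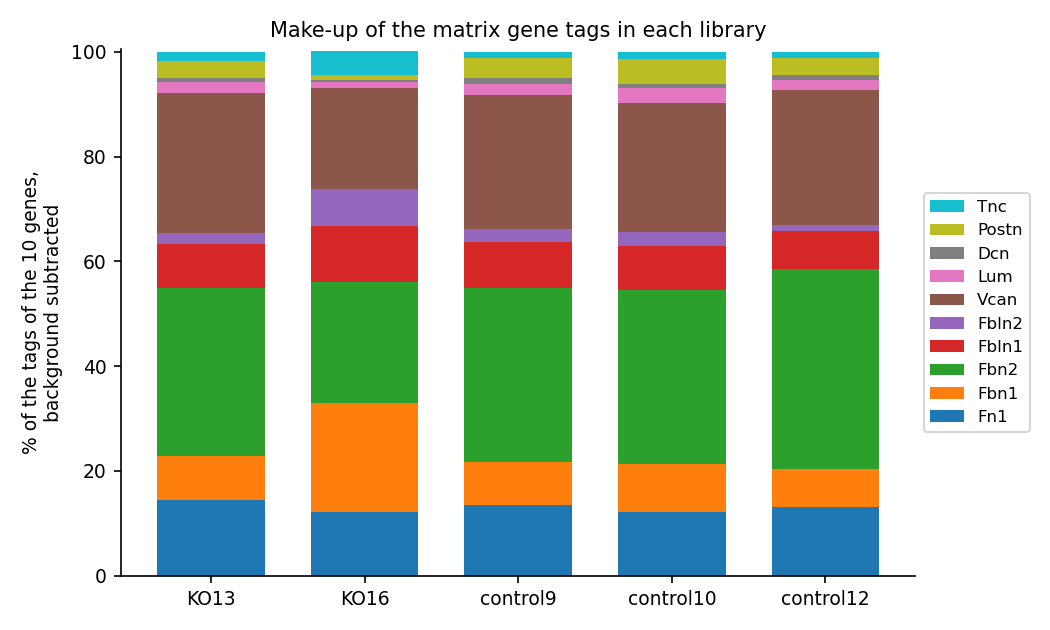
Share of each matrix gene in the background-subtracted tags of the 10 genes (percent, bars stacked from 0) in each library. KO13 resembles the controls, and in KO16 Fbn1 takes 20.7% and Fbn2 23.2%. The shares depend on the background estimate.

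Within the control pituitaries the genes could be ordered per length only, and the order depended on which length was used. With background subtracted and values TMM-scaled, Lum had 7.65 ± 1.61 tags per kilobase of region (SD, n = 3) and Vcan 6.31 ± 0.86, and their ranges overlapped. Fn1 followed at 4.17 ± 0.569, Fbn2 at 3.77 ± 0.775 and Postn at 2.89 ± 0.472, each overlapping the next. Fbln1 at 2.19 ± 0.0612 lay apart from its neighbours. Fbn1 at 0.853 ± 0.0988, Fbln2 at 0.764 ± 0.225 and Dcn at 0.537 ± 0.0985 again overlapped, and Tnc was lowest at 0.323 ± 0.0642. Per kilobase of annotated exon, in GENCODE M21, the first place went to Fbn2 at 57.2 ± 11.8 (SD, n = 3) and Lum was in the fifth place at 20 ± 4.21. Exons made up 5.50% of the region of Fbln1 and 38.2% of that of Lum, and the files do not tell exon tags from intron tags.

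Among the genes listed as changed in the authors' deposited table were Fn1 and Fbn2, in opposite directions. The authors' deposited table gave Fn1 a log2 fold change of -0.58 with a p of 0.00110, and Fbn2 a log2 fold change of 1.44 with a p of 0.00232. Its 2 columns of ratios differ in size but not in direction, at 0.7 and 0.477 for Fn1 and 2.7 and 1.92 for Fbn2. The authors' deposited table listed as higher 2.84%, and as lower 2.25%, of the 20097 names. The direction for Fbn2 there is opposite to that of the TMM-scaled fit. In the authors' deposited table the values for Fbn2 were 19 in KO and 7 in WT, far below the 554 to 982 and 466 to 912 deposited tags of the all-gene table, and their unit and libraries are not stated. Across the 1024 names of the authors' deposited table that also had rows in the all-gene table, its WT value and the mean of the 3 controls had a Spearman rho of 0.07, a description across genes.

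Other matrix genes, in lists drawn up by function, showed no called change in either direction in the TMM-scaled limma fit. The authors' deposited table listed some of them as changed, named here after their values were seen. Higher there were Wisp1, Adamts5, Bcan, Loxl1 and Tnxb, beside 2.84% of all names. Lower there were Ltbp3, Has1, Has3 and Matn2, beside 2.25%. None of the 15 tested genes of elastic fibres and microfibrils passed the limma test, 6 of the 15 were below 0, and their median was 0.30. Hmcn1 and Ltbp1, encoding hemicentin 1 and a binding protein of latent TGF-beta, were its members with most tags, at changes of -0.09 and -0.02. Of 10 other small leucine-rich proteoglycans 6 were below 0, with a median of -0.03, and Aspn and Bgn, encoding asporin and biglycan, had log2 changes of -0.04 and -0.62. The listed region of Aspn spans 187.9 kilobases and contains those of Ecm2, Omd and Ogn, named after their values were seen. The Aspn value may therefore include tags of these neighbours. Of 17 other matricellular genes 8 were below 0, with a median of 0.02. Sparc, encoding a collagen-binding secreted protein, had -0.77, and Tnr, the tenascin of neural tissue, had 0.94, at 541 scaled tags in KO16 over a region of 400 kilobases. With background subtracted the change of Tnr was 2.25, at 44.5 in KO13 and 371 in KO16, against 13.4 to 63.2 in the controls. The part of background in the Tnr values was not tested. Of 12 genes for hyaluronan, its synthesis and its binding proteins 6 were below 0, with a median of -0.02. Acan, encoding aggrecan, had 0.52, and Cd44, encoding a hyaluronan receptor, was at 3378 and 1560 scaled tags in KO13 and KO16, against 17387, 5584 and 14716, a spread of about 3-fold among the controls themselves. The change of Cd44 was -2.29 ± 0.67 (SE, adjusted p = 0.767, limma), and its mean of 8525 scaled tags was the highest in these lists. The ribosomal precursor Rn45s, named after its values were seen, also differed between libraries. It made up 14.2% and 8.88% of all tags in KO13 and KO16, against 22.2%, 16.8% and 23.5% in controls 9, 10 and 12. A link between Cd44 and Rn45s tags was not tested. Of 6 Adamts proteases that cut versican or its relatives 4 were below 0, with Adamts9 at 0.03 and Adamts20 at 0.57. Of 7 TGF-beta ligands and receptors 4 were below 0, with Tgfbr1 at -0.76 and Tgfbr3 at 0.11. Chosen after their values were seen, Thbs1 (thrombospondin 1), Cyr61 and Adamts1 had changes of -1.21, -1.20 and -1.0 at unadjusted p of 0.0145, 0.0447 and 0.0429.

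The labels name epithelial pituitary cells, but markers of other cell types held tags in every library. Detected means a deposited value above 0 here. Background alone can give such a value, so detection does not show that a cell type was in each dissection. All 10 epithelial markers were detected in each, among them Epcam and Pitx1, and their summed TMM-scaled level was 1413 in KO13 and 419 in KO16, against 882 to 1243 in the controls, or 1158 and 524, against 744 to 914, with background subtracted. All 13 mesenchymal markers were detected too, with a sum of 1097 and 615, against 1232 to 1466. Both knockout libraries were below every control in 6 of the 13 (6.91% of all tested genes), among them the genes of highest level, Col3a1 and Col1a2, which encode chains of type III and type I collagen. Col3a1 was at 455 and 103, against 458 to 605, and Col1a2 at 171 and 66.8, against 218 to 292. Both knockout libraries lay above every control in 1 of the 13 (8.43% of all tested genes), the transcription factor gene Prrx2, named after its values were seen, at 29.1 and 59.6, against 12.7 to 25.5. The 10 matrix genes summed to 2409 and 1344, against 2424 to 3413, so both sums lay below every control in both knockout libraries, that of the matrix genes in KO13 narrowly. With background subtracted the sum of the mesenchymal markers was 839 and 635, against 1016 to 1114. Both mesenchymal sums were weighted by Col3a1, Col1a2 and Col1a1, which are matrix genes themselves. Log2 changes were below 0 in 9 of the 13 markers as scaled and in 8 with background subtracted. Pdgfra and Prrx1, the non-collagen markers with most tags, were named after their values were seen. Their changes were -0.27 and 0.27 as scaled, and -0.02 and 0.43 with background subtracted. The part of mesenchyme in the matrix gene levels was not tested. Endothelial markers summed to 596 and 743, against 611 to 632, mural cell markers to 385 and 335, against 410 to 519, and neural markers to 967 and 785, against 1138 to 1353. Cartilage markers summed to 555 and 357, against 583 to 792, and skeletal muscle markers to 317 and 449, against 186 to 314. With background subtracted, KO16 was no longer below the controls for mural markers, at 273 in KO13 and 335 in KO16, against 308 to 362. The subtracted sums were 333 and 474, against 341 to 379, for endothelial markers and 628 and 440, against 754 to 1000, for neural ones. They were 380 and 179, against 419 to 548, for cartilage and 155 and 240, against 80.2 to 149, for muscle. Of all these marker lists, the only entry at 0 was a single muscle gene in control 12.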

How the data were processed

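Per the file headers, the deposited values are a normalized signal, the tags in each gene's region per 10000000 of the library. Bowtie2, HOMER, edgeR and the build mm9 stand in the submitters' processing notes, without roles or versions. The libraries kept strand, per the labels' protocols, but all regions are listed on 1 strand. The longest of 21022 regions was kept per name. All values were whole reads within 0.006 of the deposited unit (100.00%), as for 11000000 tags in each library. For changed genes alone, a second table deposited by the authors gives log2 and linear fold changes (a ratio), p-values and 1 value per genotype, used as a score since its unit is not given.

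Recovered reads gave TMM factors (edgeR 4.0.16), from 0.606 in control 9 to 1.769 in KO16. limma 3.58.1 with a trend (R 4.3.3) tested log2(scaled value + 1), 2-sided, over 19313 genes averaging 1 or more, with Benjamini-Hochberg adjustment at 0.05. Fold changes on this scale understate changes of low genes. Background was the density over 405 autosomal receptor genes times region length, subtracted with a floor of 0. The edgeR quasi-likelihood test, DESeq2 1.42.0, other scalings, filters, pseudocounts and leaving out each library were alternatives. The receptor median as background and factors from low-background genes were added after the data were seen. On counts simulated for knockout against control over 18550 genes, limma recovered 51% of genes changed 2-fold and 95% of those changed 4-fold. All simulated libraries were drawn around the control means with the same small spread, and none was set apart like KO16. Changed genes were picked among those with more reads. These rates therefore do not carry over to the data, where KO16 differed from the other libraries. Named genes were the 10 members, Itgb1 and the 2 genes of highest mean level in a list; any other is said to be chosen after its values were seen. Members and lists were chosen with earlier results of these data known. Coding sequences came from GENCODE M21 (GRCm38). Some genes of the lists were not analysed here.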

Additional observations from a re-analysis of the deposited data

How the results depend on the processing

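Over 25 alternatives, 221 of 250 single-gene changes kept the sign of the TMM-scaled fit. These are refits of the same 5 libraries, many with nearly the same settings, so the count does not measure reliability. It also includes Fbn1, whose TMM-scaled change of -0.00 has no clear sign. No matrix gene was called except without KO13, where 5 were called, with or without subtraction, among 2603 and 2709 called genes. DESeq2 on recovered reads called 25 genes, none of them a matrix gene; the edgeR quasi-likelihood test called 0, with 478 at an unadjusted p under 0.05, and limma 0, with 386. Leaving out each library in turn gave 0 to 2603 called genes, 0 to 5 called matrix genes and a median change of the 10 genes of -1.09 to -0.17. With background subtracted that median was -1.17 without KO13 and -0.20 without KO16. It was -0.47 at a mean of at least 20, 0.40 on deposited values, 0.11 and -0.16 with factors from low-background genes (without and with subtraction), and -0.24 with those factors without KO16. Genes below every control numbered 0 on deposited values, 2 with the median gene centred, and 7 in each fit of a single knockout library that subtracted background or used low-background factors. The share of all tested genes was not computed for these settings. A single library passes this mark more often. With background subtracted in all 5 libraries, KO13 alone lay below every control in 20.8% of all tested genes and KO16 alone in 37.8%.

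On deposited values the changes were 0.27 for Fn1, 1.01 for Fbn1, 0.05 for Fbn2, 0.04 for Vcan, 0.52 for Fbln1 and 0.79 for Dcn, all of the other sign, since the median gene was 0.97 higher. Fbn1, near 0, was at 0.02 with DESeq2 factors and a mean of at least 5, 0.01 centred, 0.11 subtracted, 0.05 with the receptor median, 0.00 without a filter, with summed rows and in edgeR, 0.03 in DESeq2 and 0.14 at a mean of at least 20. It was 0.08 without control 10, 0.14 and 0.41 without KO13 (as scaled and subtracted), and 0.72 and 0.60 with low-background factors. Those factors gave Fbln1 0.24 and 0.12, and Dcn 0.52 without subtraction. Without KO16 Fbn1 was at -0.14. Fbln2 was at -0.05 with array weights and without control 12, and at -0.11, -0.20 and -0.18 without KO16 (as scaled, subtracted, and with low-background factors). No paired analysis was possible because the groups share no replicate numbers. Where a cause is not stated, the cause was not tested. Depth limits Lum and Dcn most.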
